A study of Mus musculus with 6 samples.

Results

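The 10 genes described here encode NF-kB subunits and genes of the pathway's feedback: Nfkb1, Nfkb2, Rela, Relb, Nfkbia, Tnfaip3, Tnfaip2, Birc3, Bcl3 and Tnf. They were listed by symbol, with earlier results of these data known, and all 10 were found among the 20573 genes shared by the 6 count tables. The tables come from mouse liver progenitor-like cells (LPCs), proliferating cells grown from adult liver, in 3 groups of 2 libraries each. The purpose stated for 4 of the libraries was to compare cells grown from hepatocytes with cells grown from non-parenchymal cells, which are the liver cells other than hepatocytes.

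All groups were C57BL/6, labelled 6 to 8 weeks of age, and every group was cultured in a medium named Transition and Expansion Medium (TEM), so no group is untreated liver. Bec_LPCs came from WT mice, as outgrowths of intrahepatic bile duct pieces plated in matrigel, passaged and flow sorted, with Epcam+ cells named in the series' design. NPC_LPCs came from AlbCreERT/R26GFP mice, in which a tamoxifen-dependent Cre is driven by the albumin promoter. Hep_LPCs came from ROSA26tdTomato mice given AAV8-TBG-Cre, a virus whose TBG promoter drives Cre in hepatocytes. Cell source, mouse line, virus, sorting and the layout of the deposited tables changed together with the groups and cannot be told apart. The Bec_LPCs tables also carry another set of symbols, with 16 older symbols to update against 843 in the others, and may have been counted by another annotation or strand setting, so every difference of Bec_LPCs may hold a difference in counting. Whether the 2 libraries of a group came from separate cultures or animals is not in the labels. The p-values therefore rest on the spread between these libraries alone, and that spread may be technical in Bec_LPCs. The median difference between the libraries of a group, over genes tested, was 1.07-fold in Bec_LPCs, 1.28-fold in NPC_LPCs and 1.33-fold in Hep_LPCs. The NPC_LPCs libraries had 7355 and 838 reads of the ligand gene Il33, and the Hep_LPCs libraries differed in a Y-linked gene, given below. The libraries of these groups were therefore not repeats of 1 RNA sample.

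NF-kB is a family of dimeric transcription factors that wait in the cytoplasm, bound by inhibitory IkB proteins. Cytokine and microbial receptors activate a kinase complex that marks the inhibitor for destruction, and the freed dimer enters the nucleus. Several of its targets encode its own inhibitors, which closes a feedback loop. In liver the pathway is known for the response to TNF, for protection of hepatocytes from cell death and for the production of chemokines. Messenger RNA levels, the only quantity measured here, do not report how much of the factor is in the nucleus.

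Total counts ran from 17575998 to 22985844 per library. Levels are CPM, the counts of a gene relative to the size of its library, with library sizes scaled by the trimmed mean of M-values (TMM). Fold changes are log2 values ± SE, and a gene was called at a Benjamini-Hochberg adjusted p under 0.05 in the quasi-likelihood test of edgeR. The epithelial keratin gene Krt8 was at 734 to 4242 CPM in the 6 libraries, while Alb, the hepatocyte albumin gene, had 2 to 41 reads. Epcam was at 59.0 and 65.7 CPM in Bec_LPCs and at 0.115 to 1.84 CPM elsewhere. Leukocyte, endothelial and mesenchymal genes could mark other cells. Ptprc (CD45) had 14 and 18 reads in Bec_LPCs and 1 to 5 elsewhere. Pecam1 had 10 and 15 reads in Bec_LPCs and 0 to 1 elsewhere. Col1a1 was at 63.7 and 76.9 CPM in Bec_LPCs against 1.90 to 12.1 CPM elsewhere. Cd68, a macrophage gene, reached 83.9 CPM in NPC_LPCs replicate 1 and was at 8.66 to 22.8 CPM in the other 5 libraries. Hep_LPCs replicate 2 stood apart in the Y-linked gene Ddx3y, with 1 read (0.0593 CPM) against 60.4 to 102 CPM in the others. In bulk RNA, fewer cells of a type and less RNA per cell cannot be told apart.

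Tnf had at most 23 reads in a library and passed the low-count filter only through Hep_LPCs, the group where it is high, so it is described apart and the counts here are over the other 9 genes. Both Bec_LPCs libraries lay below both NPC_LPCs libraries for all 9, where 33.0% of all genes tested did so. In that comparison 5 of the 9 were called lower, namely Rela, Nfkbia, Tnfaip2, Birc3 and Bcl3, against 6.44% of all genes tested. Against Hep_LPCs, 3 were called lower in Bec_LPCs (Rela, Nfkbia and Bcl3), against 17.2% of all genes. Between Hep_LPCs and NPC_LPCs edgeR called 0 of the 9, and 0.781% of all genes. The widest range among these 9 genes was that of Nfkbia, which encodes the inhibitor IkBa. It stood at about 33 CPM in Bec_LPCs, 105 CPM in NPC_LPCs and 317 CPM in Hep_LPCs.

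**Figure D1:**
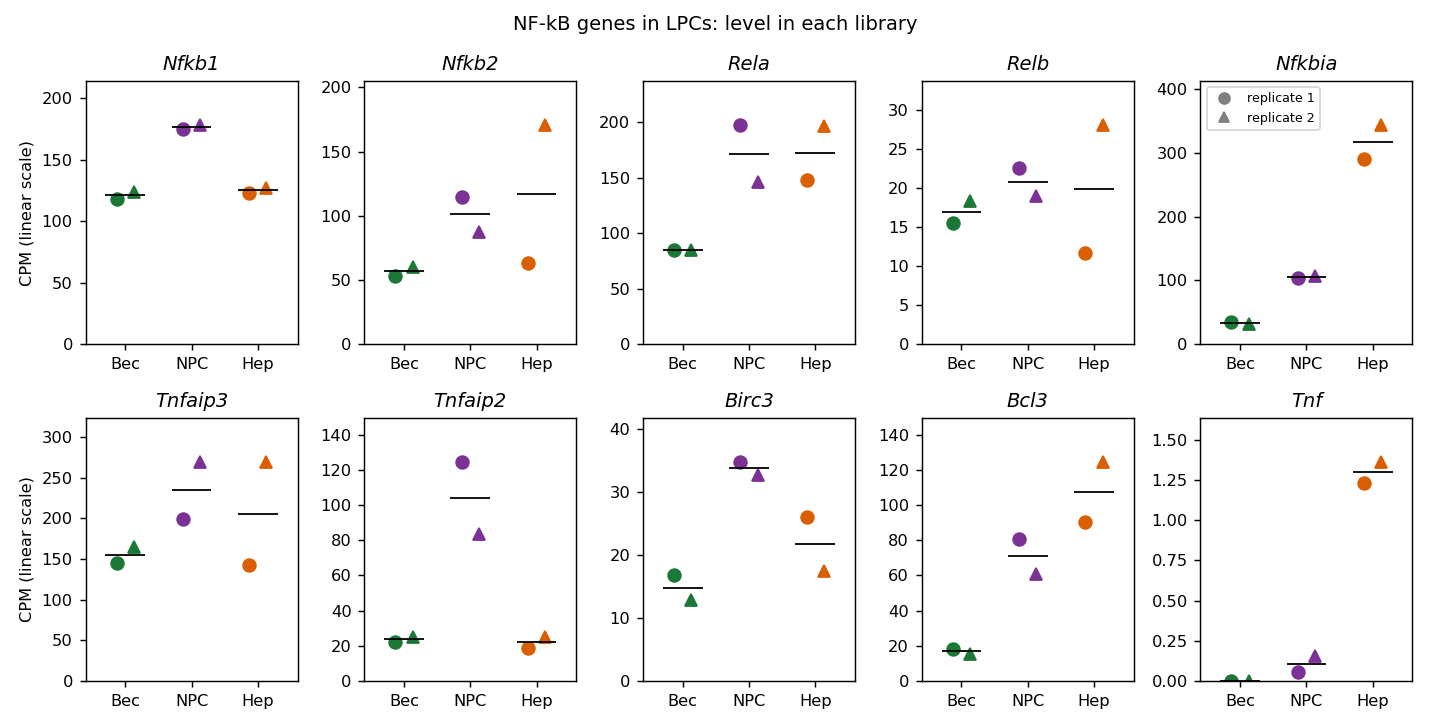
Level of each of the 10 genes in each of the 6 libraries, as CPM on a linear axis that starts at 0 and has its own scale for each gene; each point is a library and the marker shape gives its replicate number. Nfkbia steps up from Bec_LPCs (31.7 and 34.3 CPM) through NPC_LPCs (103 and 107) to Hep_LPCs (290.0 and 344), and Tnfaip2 is high in NPC_LPCs (83.5 and 125).

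Rela encodes p65, the subunit that carries the main activation domain of the canonical dimer. It was at 84.9 and 84.7 CPM in the Bec_LPCs libraries, 198 and 146 CPM in the NPC_LPCs libraries, and 148 and 197 CPM in the Hep_LPCs libraries. The Bec_LPCs libraries were the lowest, with no overlap, and the other groups covered the same range. The log2 fold change was -1.02 ± 0.23 against NPC_LPCs (adjusted p = 0.0446) and -1.02 ± 0.23 against Hep_LPCs (adjusted p = 0.0216), which was a call each time. Hep_LPCs and NPC_LPCs differed by -0.01 ± 0.28 (adjusted p = 0.984).

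Nfkb1 encodes p105, the precursor of p50, the usual partner of p65. It was at 118 and 124 CPM in Bec_LPCs, 175 and 178 CPM in NPC_LPCs, and 123 and 127 CPM in Hep_LPCs. NPC_LPCs stood highest, while the Bec_LPCs and Hep_LPCs libraries overlapped. No difference was called. The log2 fold change was -0.55 ± 0.14 for Bec_LPCs against NPC_LPCs (adjusted p = 0.0635), -0.52 ± 0.22 for Hep_LPCs against NPC_LPCs (adjusted p = 0.246) and -0.05 ± 0.14 for Bec_LPCs against Hep_LPCs (adjusted p = 0.806). With either Hep_LPCs library left out of the fit of 6, the first of these became a call (adjusted p = 0.0380 and 0.0382).

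Nfkb2 and Relb encode the p100 precursor of p52 and the RelB subunit, which together form the dimer of the non-canonical branch. Nfkb2 was at 53.0 and 60.3 CPM in Bec_LPCs, 115 and 87.6 CPM in NPC_LPCs, and 63.6 and 171 CPM in Hep_LPCs. Its lowest and highest values outside Bec_LPCs were therefore the 2 Hep_LPCs libraries. Relb was at 15.5 and 18.3 CPM in Bec_LPCs, 22.6 and 19.0 CPM in NPC_LPCs, and 11.6 and 28.1 CPM in Hep_LPCs, so that its lowest and highest values were again the 2 Hep_LPCs libraries. Neither gene was called in any comparison (adjusted p from 0.122 to 0.937). Without Hep_LPCs replicate 1, Nfkb2 was called lower in Bec_LPCs than in Hep_LPCs (-1.59, adjusted p = 0.0167). Without either Hep_LPCs library it was called lower in Bec_LPCs than in NPC_LPCs (adjusted p = 0.0483 and 0.0492). Nfkb2 shares 18.1% of its exonic length with other annotated genes, Psd and AC114539.1, and how the counting treated strand is not known from the labels, so its counts are less certain than those of Relb, which shares none.

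Nfkbia encodes IkBa, the inhibitor that is resynthesised after each round of activation and pulls the dimer out of the nucleus. It was at 34.3 and 31.7 CPM in Bec_LPCs, 103 and 107 CPM in NPC_LPCs, and 290.0 and 344 CPM in Hep_LPCs. The 3 groups did not overlap, and libraries of a group lay within 1.19-fold of each other. Bec_LPCs was lower by 3.26 ± 0.18 on the log2 scale than Hep_LPCs (log2 fold change -3.26, adjusted p = 8.13e-04). The difference from NPC_LPCs was -1.67 ± 0.17 (adjusted p = 0.00581), also a call. The step from NPC_LPCs to Hep_LPCs was 1.57 ± 0.24 and did not pass the threshold in the fit of those 4 libraries (adjusted p = 0.0585). In the fit of all 6 libraries the same step was called (adjusted p = 0.0135).

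Bcl3 encodes an unusual IkB protein of the nucleus, which binds p50 and p52 dimers at their targets. It was at 18.1 and 15.5 CPM in Bec_LPCs, 80.7 and 61.0 CPM in NPC_LPCs, and 90.4 and 125 CPM in Hep_LPCs. The groups did not overlap and had the same order as for Nfkbia, with a smaller upper step. Bec_LPCs was called lower than NPC_LPCs (-2.07 ± 0.25, adjusted p = 0.0106) and lower than Hep_LPCs (-2.68 ± 0.25, adjusted p = 0.00278). Hep_LPCs against NPC_LPCs gave 0.58 ± 0.28 (adjusted p = 0.284).

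Rela, Nfkbia and Bcl3 were the members called lower in both Bec_LPCs comparisons, which share the Bec_LPCs libraries. The sequences upstream of these 3 genes are shown because of these shared calls. Each runs 5′ to 3′ on the gene's strand, ends at the last base that is not transcribed in GENCODE M21, and comes from the RefSeq table on GRCm38.p6. Capitals mark a match to the kappaB consensus, the 10-base site that NF-kB dimers bind.
Nfkbia, chr12:55492648-55492897, minus strand: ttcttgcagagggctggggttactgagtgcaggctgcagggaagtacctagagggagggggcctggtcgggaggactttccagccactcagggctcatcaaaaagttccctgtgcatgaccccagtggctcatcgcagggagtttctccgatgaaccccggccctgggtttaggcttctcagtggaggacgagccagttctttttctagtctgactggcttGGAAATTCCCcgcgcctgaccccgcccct
Bcl3, chr7:19822771-19823005, minus strand: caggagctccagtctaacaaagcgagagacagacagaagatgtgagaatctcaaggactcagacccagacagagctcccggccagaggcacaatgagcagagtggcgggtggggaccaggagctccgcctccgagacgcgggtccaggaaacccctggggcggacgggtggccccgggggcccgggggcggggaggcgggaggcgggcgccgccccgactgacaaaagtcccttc
Rela, chr19:5637291-5637482, plus strand: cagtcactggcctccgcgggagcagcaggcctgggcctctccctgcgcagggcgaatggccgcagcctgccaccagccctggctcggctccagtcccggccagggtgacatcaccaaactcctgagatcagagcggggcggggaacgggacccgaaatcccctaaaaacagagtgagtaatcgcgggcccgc

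The consensus was searched on both strands, and overlapping matches were counted. Windows of 250 bases upstream of a start site were at hand for 8 of the 10 genes, 11 windows in all, and not for Nfkb1 and Relb. The Nfkbia window held 1 match, GGAAATTCCC, at 29 to 20 bases before its start site. The windows of Bcl3, Rela, Birc3 and Tnf held none, which says only that these letters are not in them. Tnfaip3 had GGGACACCCC at 125 to 116 and GGAAATCCCC at 12 to 3 bases before one of its start sites, Tnfaip2 had GGAGGGCCCC at 24 to 15, and Nfkb2 had matches in each of its 3 windows, among them GGGAATTCCC at 39 to 30. A match was present in 7.25% of the 32851 windows of this length in the table, and 1.03% held more than 1. These are matches of letters and not measured binding sites.

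Tnfaip3 encodes A20, an enzyme that edits ubiquitin chains and shuts down signalling from TNF and Toll-like receptors. It was at 146 and 165 CPM in Bec_LPCs, 199.6 and 269.8 CPM in NPC_LPCs, and 142 and 269 CPM in Hep_LPCs. Bec_LPCs lay below NPC_LPCs and inside the range of Hep_LPCs. The test called no difference, with -0.60 ± 0.33 against NPC_LPCs (adjusted p = 0.276) and -0.41 ± 0.33 against Hep_LPCs (adjusted p = 0.372).

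Birc3 encodes cIAP2, a ubiquitin ligase of the TNF receptor complex that restrains cell death. It was at 16.8 and 12.8 CPM in Bec_LPCs, 34.8 and 32.7 CPM in NPC_LPCs, and 26.0 and 17.5 CPM in Hep_LPCs, with no overlap among the groups. The log2 fold change of Bec_LPCs against NPC_LPCs was -1.19 ± 0.27 (adjusted p = 0.0478, called). Hep_LPCs was between the others and was not called against NPC_LPCs (-0.65 ± 0.31, adjusted p = 0.284), nor was Bec_LPCs against Hep_LPCs (-0.56 ± 0.27, adjusted p = 0.159).

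Tnfaip2 encodes a TNF-inducible protein linked to membrane protrusions. It was at 22.2 and 25.1 CPM in Bec_LPCs, 125 and 83.5 CPM in NPC_LPCs, and 18.7 and 25.2 CPM in Hep_LPCs. Both NPC_LPCs libraries stood over 3-fold above the other 4, which overlapped. Bec_LPCs was called lower than NPC_LPCs (-2.14 ± 0.27, adjusted p = 0.0125) and differed from Hep_LPCs by 0.11 ± 0.26 (adjusted p = 0.774). Hep_LPCs against NPC_LPCs gave -2.26 ± 0.32, just short of the threshold (adjusted p = 0.0508). It was called in the fit of all 6 libraries (adjusted p = 0.0181) and without NPC_LPCs replicate 2 (adjusted p = 0.0398). Nfkb1 was likewise highest in NPC_LPCs, over a smaller range. The macrophage and leukocyte markers summed to 248 and 75.2 CPM in NPC_LPCs, 76.6 to 81.1 CPM in Bec_LPCs and 55.5 to 122 CPM in Hep_LPCs. Cd14 held most of this sum, at 161 and 52.7 CPM in NPC_LPCs, 56.7 and 48.8 CPM in Bec_LPCs, and 93.8 and 39.2 CPM in Hep_LPCs. Lyz2 was at 12.2 and 14.4 CPM in Bec_LPCs and at most 0.635 CPM elsewhere, and was called higher in both Bec_LPCs comparisons (adjusted p = 0.0477 and 0.0199). These p-values are no independent support, because Lyz2 passed the low-count filter only through Bec_LPCs, the group where it is high. The Kupffer cell genes Clec4f, Timd4 and Vsig4 and the T cell gene Cd3e were at 0 in all 6 libraries, and Adgre1 had 0 to 6 reads. Other genes of this list did have reads. Marco had 0 to 4 reads in a library and Csf1r had 16 to 55. Tyrobp had 9 and 17 reads in Bec_LPCs and 0 elsewhere. The part of such cells in the levels of Tnfaip2 was not tested.

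Tnf, the ligand that gives the family of TNF-induced genes its name, had few reads in any library, namely 0 and 0 reads in Bec_LPCs, 1 and 3 reads in NPC_LPCs, and 21 and 23 reads in Hep_LPCs, or 1.23 and 1.36 CPM in the last. A count of 0 allows up to 3 reads in a library. Against that floor, taken per library, Tnf was at least 10.2-fold higher in Hep_LPCs than in Bec_LPCs, and edgeR gave an adjusted p of 0.0133. This p is no independent support, because Tnf entered the fit through its reads in Hep_LPCs; with no low-count filter it was 0.0164, and without either Bec_LPCs library it was 0.122 and 0.120. Hep_LPCs against NPC_LPCs, 44 against 4 reads in all, gave a ratio of 12.0 with a 95% interval of 4.36 to 45.9 that covers counting error only. The test over libraries did not call it (adjusted p = 0.127). Bec_LPCs and NPC_LPCs were at or under the floor, so no fold is given for them.

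**Figure D2:**
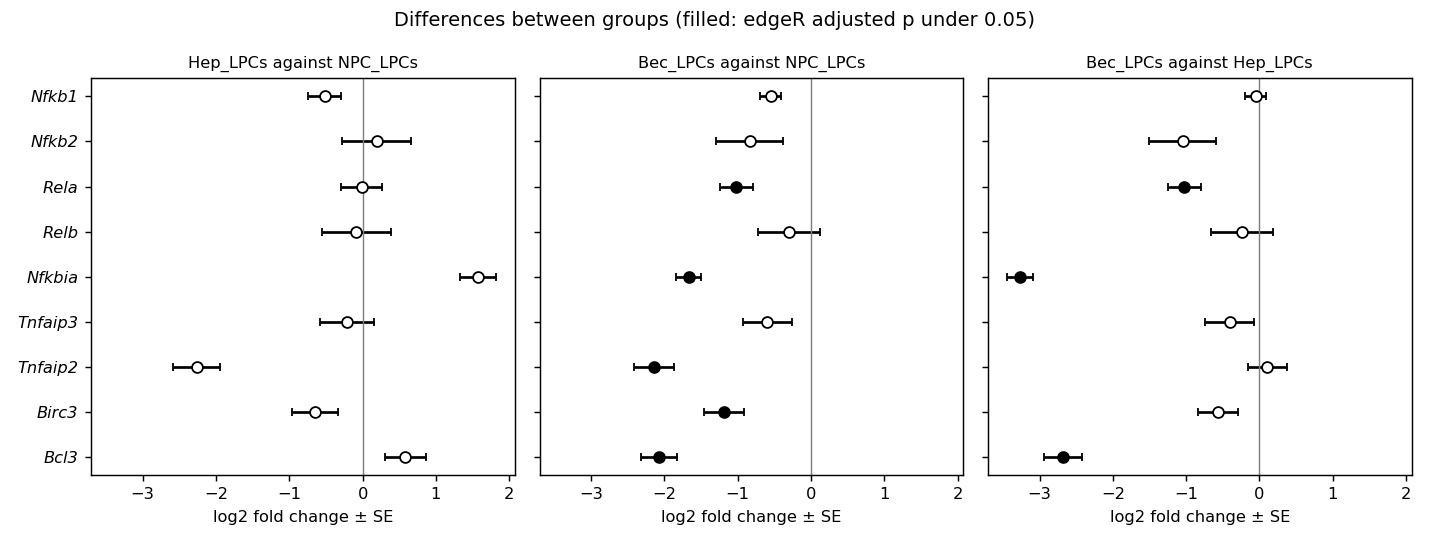
Log2 fold change of 9 of the 10 genes in the 3 comparisons, with bars for the SE and filled points where edgeR's adjusted p was under 0.05; Tnf is not drawn because a fitted fold against 0 reads is no measure of size. In Bec_LPCs against NPC_LPCs all 9 estimates are below 0, while Hep_LPCs against NPC_LPCs has no filled point.

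Of the 9 genes other than Tnf 0 were called higher in Bec_LPCs than in NPC_LPCs, where 4.88% of all 12868 genes tested were. Their median log2 fold change was -1.02, beside 0.01 over all genes tested. The count of 5 called lower fell to 0 without Bec_LPCs replicate 1 and to 0 without Bec_LPCs replicate 2, where 115 and 117 genes of all were called in place of 1457. It was 3 without NPC_LPCs replicate 1, 4 without NPC_LPCs replicate 2, and 7 without either Hep_LPCs library. The estimates of the 9 genes were below 0 in each of these fits.

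Bec_LPCs against Hep_LPCs had 0 of the 9 genes called higher, where 16.1% of all genes were. The libraries did not overlap, with Bec_LPCs lower, for 5 of the 9 genes, against 36.8% of all genes. Their median was -0.56, beside 0.03 over all genes. The count of 3 called lower fell to 2, Nfkbia and Bcl3, without either Bec_LPCs library. Rela was no longer called without Hep_LPCs replicate 2 (-0.80, adjusted p = 0.0531).

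Hep_LPCs against NPC_LPCs was tested on 12159 genes. At an unadjusted p under 0.05 edgeR had 2 of the 9, namely Nfkbia and Tnfaip2, where 22.2% of all genes fell under it. DESeq2's Wald test called Nfkbia higher and Tnfaip2 lower (12.3% of all genes), and limma-voom called 0 of the 9 (0.0411% of all genes). Libraries did not overlap for 2 genes that were higher in Hep_LPCs (Nfkbia and Bcl3) and 3 that were lower (Nfkb1, Tnfaip2 and Birc3), where 28.9% and 27.7% of all genes did so. The median of the 9 was -0.09. Leaving out either Hep_LPCs library left 0 genes called among all genes tested.

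Levels can be ordered between genes only per length. In FPKM, a level scaled for gene length and depth that the authors deposited for the NPC_LPCs and Hep_LPCs libraries, Nfkbia was at 46.7 and 51.7 in NPC_LPCs and at 131 and 153 in Hep_LPCs. It led in 3 of these 4 libraries. In NPC_LPCs replicate 1 Rela stood beside it, at 47.0 FPKM, while in replicate 2 Rela, at 34.8 FPKM, was also under Tnfaip3, at 42.9 FPKM. In Hep_LPCs Bcl3 was at 46.4 and 64.6 FPKM and Rela at 35.2 and 50.7 FPKM, an order that turned with the other scale below. Relb, Birc3 and Tnf were the lowest in NPC_LPCs, at 5.91 to 6.13, 4.83 to 5.02 and 0.0253 to 0.0677 FPKM. Tnfaip2 was in the middle of the order in NPC_LPCs, at 24.8 and 16.996 FPKM, and was at 3.82 and 5.29 FPKM in Hep_LPCs.

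The Bec_LPCs tables hold counts only, so CPM was divided there by the exonic length of GENCODE M21 in kilobases. On that scale Rela was the highest of the 10 in Bec_LPCs, at 27.6 and 27.6 CPM per kilobase. Tnfaip3 (20.1 and 22.8) and Nfkbia (21.3 and 19.7) followed and overlapped each other. Nfkb2 (11.6 and 13.2) and Nfkb1 (9.82 and 10.3) came next, and Bcl3 (7.33 and 6.25) after them. Tnfaip2 (4.45 and 5.04) and Relb (3.99 and 4.71) overlapped, and Birc3 (3.35 and 2.55) was the lowest but for Tnf. On the same scale Nfkbia was first in Hep_LPCs, at 180.1 and 214 CPM per kilobase, with Rela at 48.1 and 64.0 above Bcl3 at 36.5 and 50.4, the reverse of their order in FPKM.

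Ratios of reads within a library do not depend on the scaling between libraries, although they keep the genes' lengths. Reads of Nfkbia, the inhibitor, per read of Rela, its main binding partner, were 0.404 and 0.374 in Bec_LPCs, 0.522 and 0.731 in NPC_LPCs, and 1.96 and 1.75 in Hep_LPCs. The Hep_LPCs libraries alone had more reads of the inhibitor than of Rela. Per read of Nfkb1, Nfkbia gave 0.289 and 0.256 in Bec_LPCs, 0.589 and 0.598 in NPC_LPCs, and 2.35 and 2.70 in Hep_LPCs. Bcl3 per read of Nfkb1 kept this order, with 0.153 and 0.125, 0.460 and 0.342, and 0.733 and 0.980. Nfkb2 per read of Nfkb1 did not order the groups, since the Hep_LPCs libraries gave 0.516 and 1.34.

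Hep_LPCs libraries differed most in the non-canonical pair and in A20. Replicate 2 was above replicate 1 by 2.68-fold in Nfkb2, 2.40-fold in Relb and 1.89-fold in Tnfaip3. The median size of this difference over all genes tested was 1.33-fold. Replicate 2 was 1.38-fold higher in Bcl3 and 1.33-fold higher in Rela, near that median, and Birc3 was 1.49-fold lower. Nfkb1 (1.03-fold) and Nfkbia (1.19-fold) differed by less. The immediate early and dissociation genes, which respond to stress and handling, summed to 1358 and 1839 CPM in the Hep_LPCs libraries, against 483 to 687 CPM in the other 4. Their part in the levels of Nfkbia, Bcl3 and Tnf in Hep_LPCs was not tested.

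**Figure D3:**
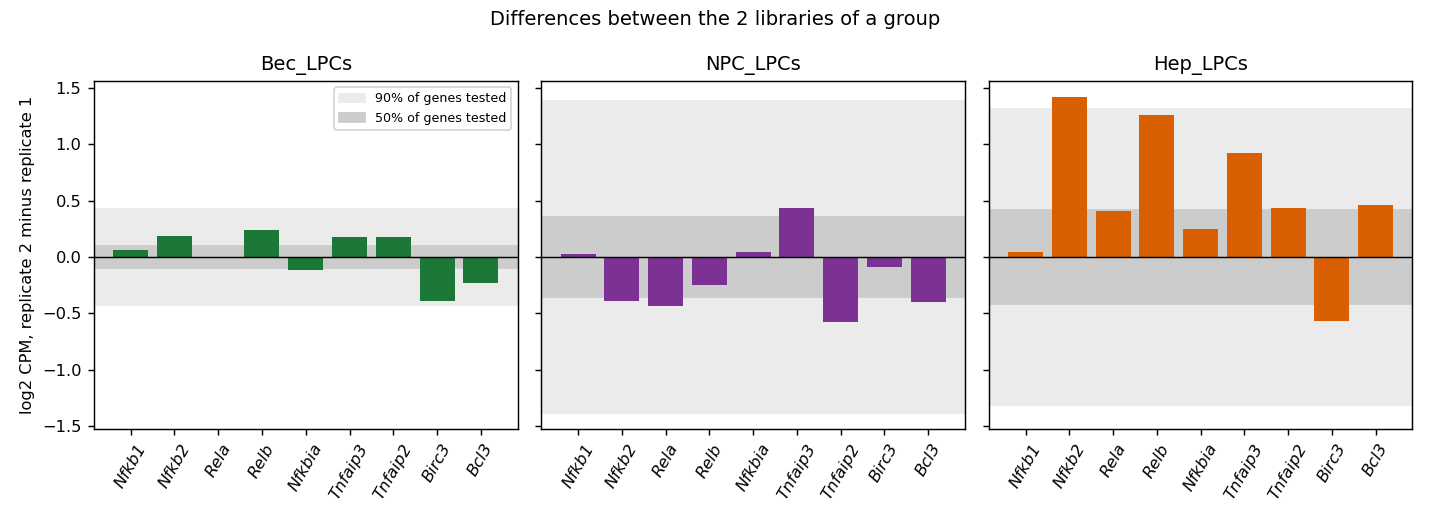
Log2 CPM of replicate 2 minus replicate 1 for 9 of the 10 genes in each group, as bars from 0; the dark and light bands hold 50% and 90% of all genes tested, and Tnf is not drawn. The tallest bars are Nfkb2 and Relb in Hep_LPCs, while most bars in Bec_LPCs are short and so is that group's band.

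The likeness of the 10 genes' patterns over the 6 libraries is given as Pearson's r of log2 CPM, a description without a test, since 3 groups of 2 libraries leave few distinct patterns. Nfkb1 and Tnfaip2, both high in NPC_LPCs, had r = 0.971. Nfkbia had r = 0.949 with Bcl3 and r = 0.954 with Tnf, while Rela had r = 0.958 with Bcl3. Outside Hep_LPCs Tnf was at or under the floor of 3 reads, so its r with any gene mostly restates its reads in Hep_LPCs. Nfkb2 and Relb had r = 0.845. Nfkbia and Tnfaip2 had r = -0.03.

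Among the 12868 genes tested, those most like each member were mostly outside the pathway. Nfkbia was nearest to Nudt9 (r = 0.999) and Eif3d (r = 0.999), a translation initiation factor gene at 99.6 and 94.0 CPM in Bec_LPCs, 221 and 224 CPM in NPC_LPCs, and 534 and 605 CPM in Hep_LPCs. Bcl3 was nearest to Epn1 (r = 0.999) and Stub1 (r = 0.997). Rela was nearest to Ftl1 (r = 0.997) and to Ikbke (r = 0.996), which encodes an IKK-related kinase. Birc3 was nearest to Il1rn (r = 0.994), the gene of the IL-1 receptor antagonist, and to Ak1. Nfkb1 was nearest to Pdk1 (r = 0.991) and Ifit2 (r = 0.989), and Tnfaip2 to Mfge8 and H6pd (r = 0.991 each). The nearest genes were Hdgfl2 and Mon1a for Nfkb2, Fads3 and Pip4k2c for Relb, Pxn and Tmem184b for Tnfaip3, and Arhgap45 and Fam207a for Tnf, with r from 0.959 to 0.999.

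The rest of the pathway was read from 5 lists, to be set against the same shares of all genes called and medians given above. Of 17 other subunits and inhibitors, all tested, 4 were called lower in Bec_LPCs than in NPC_LPCs and 0 higher. The 3 with the smallest adjusted p were Tnip1, an A20-binding partner (-1.94 ± 0.17, adjusted p = 0.00431), Nfkbib, which encodes IkBb (-1.45 ± 0.21, adjusted p = 0.0184), and Zc3h12a, the gene of an RNase that degrades cytokine transcripts (-1.63 ± 0.24, adjusted p = 0.0184). Against Hep_LPCs, 7 were lower and 1 higher in Bec_LPCs. The median of the list was -0.48 against NPC_LPCs and -0.66 against Hep_LPCs. Zfp36, the gene of the RNA-binding protein tristetraprolin, was at 27.6 and 30.2 CPM in Bec_LPCs, 39.7 and 33.3 CPM in NPC_LPCs, and 331 and 394 CPM in Hep_LPCs. It stood apart in Hep_LPCs and was the 1 gene of this list called in Hep_LPCs against NPC_LPCs (3.29 ± 0.27, adjusted p = 0.0250). Nfkbib and Otulin, the gene of a linear-ubiquitin hydrolase, were lower in Bec_LPCs than in Hep_LPCs (-1.62 ± 0.22 and -1.26 ± 0.18, adjusted p = 0.00604 and 0.00672).

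Of 16 receptor genes 15 were tested, and 3 were called lower in Bec_LPCs than in NPC_LPCs, with 0 higher and a median of -0.84 over the list. They were the TNF receptor genes Tnfrsf1a (-0.84 ± 0.16, adjusted p = 0.0305) and Tnfrsf1b (-2.01 ± 0.27, adjusted p = 0.0148), and Tlr2 (-1.84 ± 0.34, adjusted p = 0.0287). Tnfrsf1b was also the 1 receptor called between Hep_LPCs and NPC_LPCs (-2.38 ± 0.33, adjusted p = 0.0487), at 13.8 and 22.4 CPM against 87.3 and 98.3 CPM. Against Hep_LPCs, Bec_LPCs was higher in Cd40 (3.25 ± 0.67, adjusted p = 0.0179) and Tlr3 (1.74 ± 0.38, adjusted p = 0.0211). It was lower in Tnfrsf1a (-0.71 ± 0.16, adjusted p = 0.0213), and the median of the list was 0.73. Cd40 had 7 and 16 reads in Hep_LPCs. It passed the low-count filter through the other groups, where it is higher, so its call is no independent support. Of the 12 other ligand genes 4 were tested. Tnfsf15 was higher in Bec_LPCs than in NPC_LPCs (3.71 ± 0.46, adjusted p = 0.0115) and than in Hep_LPCs (2.63 ± 0.43, adjusted p = 0.0102). Tnfsf12, which encodes TWEAK, was lower in both (-1.62 ± 0.27 and -1.86 ± 0.27, adjusted p = 0.0238 and 0.00762). Il33 was lower in Bec_LPCs than in Hep_LPCs (-3.80 ± 1.01, adjusted p = 0.0353).

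Of 28 adaptor and kinase genes 27 were tested. In Bec_LPCs against NPC_LPCs 3 were lower and 0 higher, namely Ikbke (-1.66 ± 0.29, adjusted p = 0.0274), Ripk2 (-1.01 ± 0.21, adjusted p = 0.0401) and Tank (-0.90 ± 0.21, adjusted p = 0.0497). In Bec_LPCs against Hep_LPCs 3 were lower and 3 higher, where 17.2% and 16.1% of all genes tested were. The medians of this list were -0.10 and -0.04. Ripk2, a kinase of the NOD receptors, was on the higher side there (1.15 ± 0.22, adjusted p = 0.0142), as was Map3k7, which encodes TAK1 (1.08 ± 0.25, adjusted p = 0.0240), while Ikbke was lower (-1.61 ± 0.29, adjusted p = 0.0131). No adaptor or kinase was called between Hep_LPCs and NPC_LPCs. Ripk2 came nearest (-2.19 ± 0.31, adjusted p = 0.0527).

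Of 38 target genes of NF-kB, 36 were tested in the Bec_LPCs comparisons. Against NPC_LPCs 10 were lower and 1, Sdc4, was higher, with a median of -1.09. Against Hep_LPCs 11 were lower and 4 higher, where 17.2% and 16.1% of all genes tested were, with a median of -0.31. The 4 were Sdc4, Cflar, Il15 and Steap4, so that Sdc4 was called higher in Bec_LPCs in both comparisons. The 9 called lower in both were Cxcl1, Cxcl5, Ccl2, Ccl7, Ccl20, Csf2, Nos2, Lcn2 and Saa3, which encode mostly chemokines, with a growth factor, nitric oxide synthase and acute phase proteins. In Bec_LPCs Saa3 had 0 and 0 reads, Nos2 had 0 and 3, and Lcn2 had 26 and 5. These genes passed the low-count filter through the groups where they are high, so their calls are no independent support. Ccl2, the gene of a monocyte chemokine, was at 18.5 and 16.1 CPM in Bec_LPCs, 804 and 647 CPM in NPC_LPCs, and 524 and 392 CPM in Hep_LPCs. It was lower in Bec_LPCs by -5.39 ± 0.26 and -4.72 ± 0.25 (adjusted p = 9.28e-04 and 8.13e-04).

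Cxcl1, the gene of a neutrophil chemokine, was at 38.9 and 34.4 CPM in Bec_LPCs, 957 and 630.2 CPM in NPC_LPCs, and 1095 and 1027 CPM in Hep_LPCs. Its log2 fold changes were -4.44 ± 0.27 and -4.85 ± 0.28 (adjusted p = 0.00145 and 8.61e-04). Cxcl5, of the same family, was at 20.8 and 13.6 CPM in Bec_LPCs, 921 and 327 CPM in NPC_LPCs, and 260.4 and 189.6 CPM in Hep_LPCs. Against NPC_LPCs it differed by -5.18 ± 0.60 (adjusted p = 0.00965). The Bec_LPCs libraries were the lowest for each of these chemokine genes, with no overlap. Steap4, a metalloreductase gene, had its lowest levels in Hep_LPCs. It was at 14.5 and 15.8 CPM in Bec_LPCs, 21.3 and 22.0 CPM in NPC_LPCs, and 0.995 and 0.534 CPM in Hep_LPCs. Of 34 target genes tested between Hep_LPCs and NPC_LPCs, with a median of -0.61, it was the 1 called (-4.83 ± 0.50, adjusted p = 0.0340). It was also higher in Bec_LPCs than in Hep_LPCs (4.29 ± 0.36, adjusted p = 0.00216). Steap4 had 17 and 9 reads in Hep_LPCs. It passed the low-count filter through the other groups, where it is high, so these calls are no independent support.

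**Figure D4:**
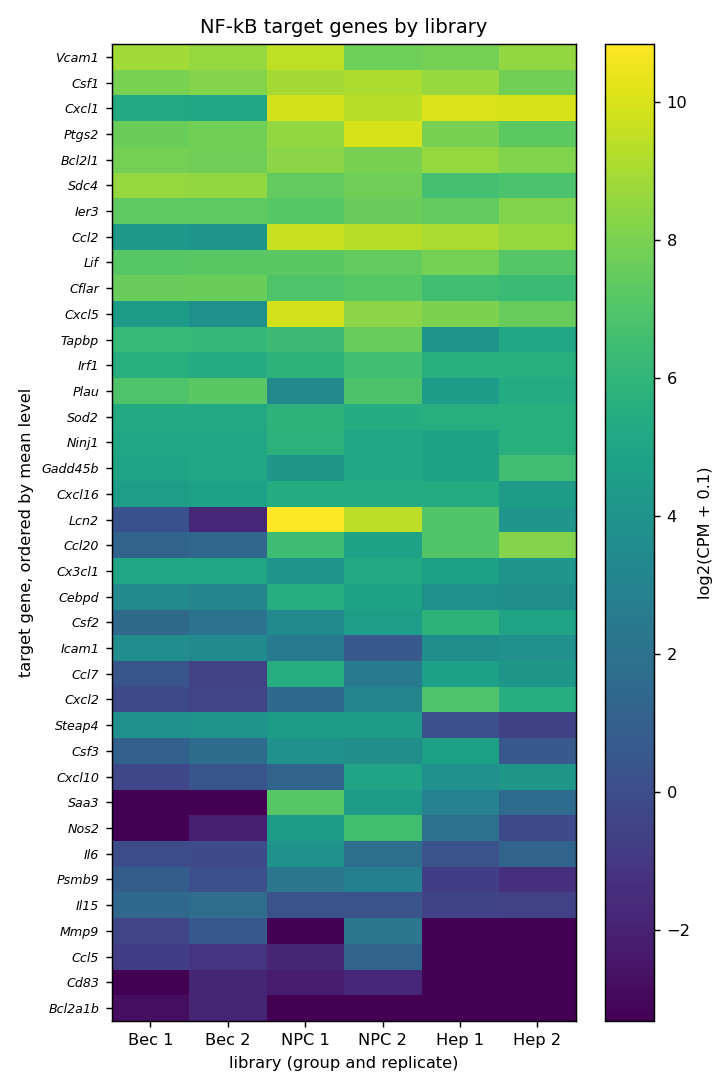
Level of the 38 target genes in the 6 libraries as log2(CPM + 0.1), with 1 row for each gene ordered by mean level and 1 column for each library. The chemokine genes Ccl2, Cxcl1 and Cxcl5 differ in colour between the Bec_LPCs columns and the other 4, with Ccl2 at 16.1 and 18.5 CPM there and 392 to 804 CPM in the other 4 libraries.

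Mesenchymal and stellate markers, 12 genes of which Lrat and Lum were at 0 in all libraries, summed to 195 and 229 CPM in Bec_LPCs and to 6.29 to 20.5 CPM in the other 4 libraries. Endothelial markers, 9 genes of which Clec4g was at 0 in all libraries, summed to 4.97 to 9.86 CPM. Their part in the lower levels of the 10 genes and of the chemokine genes in Bec_LPCs was not tested. The 10 genes are protein-coding, and none but Nfkb2 shares exonic sequence with another protein-coding gene. Restricting the test to protein-coding genes that share at most 25% of their exonic length kept 3 of the 5 calls in Bec_LPCs against NPC_LPCs (Nfkbia, Tnfaip2 and Bcl3) and all 3 in Bec_LPCs against Hep_LPCs.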

How the data were processed

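RNA was sequenced in paired-end mode with a stranded mRNA kit, per the labels' protocols. Trimmomatic, HISAT2, Cufflinks, HTSeq and DESeq on mm10 are named in the submitters' processing notes, without versions, settings or strand. The authors deposited counts per gene symbol for every library, and FPKM beside them for NPC_LPCs and Hep_LPCs. Rows without a name (14 per Bec_LPCs library, 0.000191% and 0.000181% of counts) were left out. Older symbols were updated (16 in Bec_LPCs, 843 in the others). The shared genes held 95.3% to 95.4% of the Bec_LPCs counts and 99.3% to 99.4% of the others. A floor of 3 reads was 0.127 to 0.178 CPM on the scaled library sizes.

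Hep_LPCs against NPC_LPCs was fitted on its 4 libraries, and Bec_LPCs comparisons on all 6, with edgeR 4.0.16 (R 4.3.3): filterByExpr, TMM, glmQLFit with robust estimation, glmQLFTest, two-sided, across all genes tested. CPM is on the scaling of the fit of 6. The SE was taken from the F statistic, as the size of the estimate over its square root. The scripts were tested on simulated data. Alternatives used DESeq2 1.42.0, limma 3.58.1 and other scalings, filters, libraries and gene sets; limma on log2(FPKM + 1) and log2(FPKM + 0.1) covered Hep_LPCs against NPC_LPCs. A correction for GC content and length was chosen after the data were seen. Over all genes, the median log2 fold change of Hep_LPCs against NPC_LPCs was 0.24 for transcripts of 1000 to 2000 bases and -0.32 over 6000. For Bec_LPCs against Hep_LPCs these medians were -0.23 and 0.46. Nfkbia, Tnf and Bcl3 had the shortest transcripts of the 10 genes, at 1578, 1639 and 1850 bases. Coordinates are GENCODE M21 on mm10. Members and lists were chosen with earlier results of these data known. All 10 members were named, with up to 3 genes per list and comparison by smallest adjusted p, the 2 most alike genes per member and fixed markers. Ddx3y, Clec4f, Timd4, Vsig4, Cd3e, Lrat, Lum and Clec4g were named after their values were seen. So were Sdc4, Cflar, Il15, Cd14, Lyz2, Marco, Csf1r, Tyrobp and the target genes called in both Bec_LPCs comparisons. One marker gene is not reported here.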

Additional observations from a re-analysis of the deposited data

How the results depend on the processing

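Counts of members here include Tnf, so that Bec_LPCs against Hep_LPCs has 4. The call of Tnf is no independent support, since it passed the low-count filter only through Hep_LPCs. That comparison kept Nfkbia and Bcl3 as calls in every alternative run. Genes called in Hep_LPCs against NPC_LPCs (95) came to 449 without a filter, 173 at 10 CPM in 2 libraries, 1499 with DESeq2's Wald test, 5 with limma-voom, 1274 with all 6 libraries in the fit, 206 on log2(FPKM + 1) and 198 on log2(FPKM + 0.1). Members called rose from 0 to 2, Nfkbia and Tnfaip2, without a filter, at 10 CPM, with DESeq2's Wald test, with all 6 libraries and on log2(FPKM + 1), and to 1, Tnfaip2, with counted-alike genes (protein-coding, at most 25% shared exonic length) and with the GC and length correction. In Bec_LPCs against NPC_LPCs, genes called (1457) came to 2898 with DESeq2's Wald test and 2492 in the fit of its own 4 libraries, and members called (5) to 6 (Nfkb1 gained) and 7 (Nfkb1 and Nfkb2 gained) in those fits, but to 3 with library size alone and 3 with counted-alike genes, where Rela and Birc3 were lost. Library size alone moved the median of all genes to 0.17 and 0.21 in the comparisons of Bec_LPCs with NPC_LPCs and Hep_LPCs, and the share of calls that were higher from 43.1% to 61.3% and from 48.3% to 60.9%.

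The replicate number was used as a block. Same-numbered libraries deviated with r of 0.0867, -0.04 and -0.01 between groups, so no pairing by number was seen. With 2 libraries in a group, these values cannot exclude a pairing. With the block 126, 770 and 3389 genes were called, and 0, 3 and 4 members, in the order Hep_LPCs against NPC_LPCs, Bec_LPCs against NPC_LPCs and Bec_LPCs against Hep_LPCs. Signs turned only in estimates that were not called. Rela in Hep_LPCs against NPC_LPCs was 0.0040 with all 6 libraries, 0.063 on log2(FPKM + 1) and 0.064 on log2(FPKM + 0.1). In Bec_LPCs against Hep_LPCs, Nfkb1 was 0.13 with library size alone and Relb 0.0053 with the GC and length correction. The cause was not tested.

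With each library left out in turn, genes called ran from 0 to 354, from 115 to 2363 and from 491 to 4908 in the same order, and members called from 0 to 1, from 0 to 7 and from 2 to 5; fits with 1 library in a group assume that it varies like the others. Log2 fold changes of Hep_LPCs against NPC_LPCs ran from -0.23 to 0.22 for Rela, -0.85 to 0.43 for Relb, -0.75 to 0.19 for Tnfaip3 and -0.69 to 0.75 for Nfkb2. Those of Bec_LPCs against Hep_LPCs ran from -0.094 to 0.34 for Tnfaip2, -0.73 to 0.54 for Relb and -0.80 to 0.13 for Tnfaip3. Depth limits Tnf, at 0 to 23 reads per library.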
